A study of Mus musculus with 9 samples.

Results

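Extra progesterone receptor isoform B in the uterine luminal epithelium was compared with control epithelium, in 3 ePRBoe and 3 Wnt7acre libraries of the 9 in the series. The comparison took in every gene with at least 1 FPKM (sequenced fragments per kilobase, relative to library depth) in at least 3 of these 6 libraries, which was 12068 of the 15158 symbols of the deposited table. The mice were females kept to 8 weeks of age and mated, and the luminal epithelium, the cell layer that faces the uterine cavity, was cut out by laser capture on pregnancy day 4. Control animals carried the cre recombinase of the Wnt7acre line alone. ePRBoe animals had the genotype Wnt7acre/+PgrBLsL/+ and ePRAoe animals, which enter below as a further group of 3, Wnt7acre/+PgrALsL/+. All 3 groups therefore carried the cre, and the overexpression is added to the animals' own Pgr gene. No Pgr deletion is named in the labels. Bioreplicates are numbered there without naming animals, and p-values therefore reflect the variation among these libraries, which may be technical.

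The progesterone receptor is a nuclear receptor that binds DNA once progesterone has bound it, and a single gene, Pgr, gives rise to a long isoform, B, and a shorter isoform, A. In early mouse pregnancy rising progesterone acts on both epithelium and stroma. The luminal epithelium answers by secreting signals such as Indian hedgehog to the stroma beneath it, and its own receptor level then falls around the time of attachment. The comparison asks what additional isoform B does to the RNA of that epithelium at the time it becomes receptive.

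Most of the genes that changed were higher with extra isoform B: 821 rose and 317 fell. That is 6.8% and 2.63% of the genes tested, and 9.43% in either direction (limma with a term for sequencing run, adjusted p under 0.05). Counts of rises and falls in every gene list below are to be read beside these shares. By at least 2-fold, 675 rose and 233 fell, and by at least 8-fold 17 and 20. The rises were mostly of genes at lower levels, with a median of 10.2 FPKM in ePRBoe, and 192 of them averaged under 1 FPKM in the controls. The falls were of genes with a median of 27.2 FPKM in the controls, and 39 of them averaged under 1 FPKM in ePRBoe. For 779 of the rises and 311 of the falls the 3 ePRBoe libraries lay entirely beyond the 3 Wnt7acre libraries. Such separation was also common among all genes tested, at 39.7%, with 23.1% higher and 16.6% lower in ePRBoe. A gene under 1 FPKM in every library of 1 group was tested only if all 3 of the other reached 1 FPKM. For such genes the filter fixes the separation in advance. The median log2 fold change of all genes tested was 0.10, and 59.1% were above 0.

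Replicates resembled each other more in ePRBoe (correlation across genes 0.970 to 0.974) than in Wnt7acre (0.929 to 0.963). On the first principal component of the 6 libraries, which held 64.7% of the variance, the Wnt7acre libraries stood at -23.6, -56.1 and -33.6 and the ePRBoe libraries at 29.9, 41.7 and 41.7. All 3 ePRBoe libraries came from a single sequencing run, which held 1 control, Wnt7acre replicate 3. All 821 rises and all 317 falls had the same sign against this control alone. The fit gives it the most weight of the controls, so this agreement is largely built in and is no separate support. That control carries much of the test. Without it 213 genes rose and 27 fell, and without ePRAoe replicate 2, which was in the same run, 263 and 103. Leaving out an ePRBoe library left 392 and 202 (replicate 1), 317 and 91 (replicate 2) or 362 and 117 (replicate 3). Leaving out Wnt7acre replicate 1 or ePRAoe replicate 1, which shared another run, gave more falls (535 and 539). These libraries were alone in their run, so leaving out either gave the same log2 fold changes, and they make 1 check. The same holds for Wnt7acre replicate 2 and ePRAoe replicate 3. With any 1 of the 9 libraries left out 129 of the rises and 16 of the falls were still called. The libraries summed to between 289902 and 314010 FPKM, and 11385 to 12300 genes reached 1 FPKM in them. Scaling the libraries by median-of-ratios factors gave 657 rises and 439 falls, so that rises made up 59.9% of the calls in place of 72.1%. Quantile normalization gave 585 and 474 (55.2%).

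**Figure D1:**
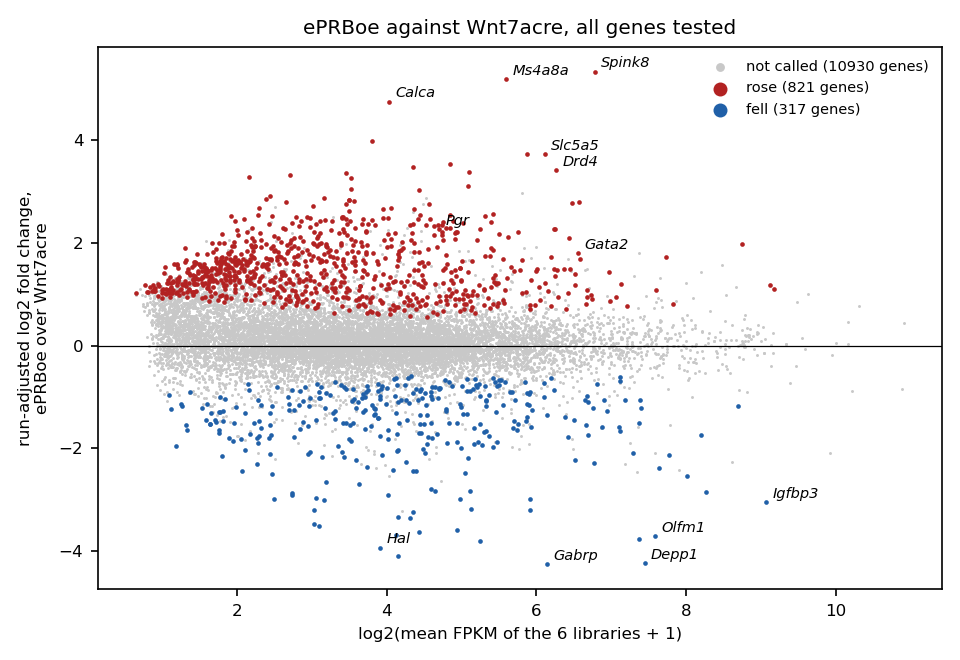
Run-adjusted log2 fold change of ePRBoe over Wnt7acre against log2(mean FPKM of the 6 libraries + 1), 1 point per gene tested. The 821 genes that rose are red, the 317 that fell are blue, and the rises reach further to the left, towards low levels, than the falls.

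**Figure D2:**
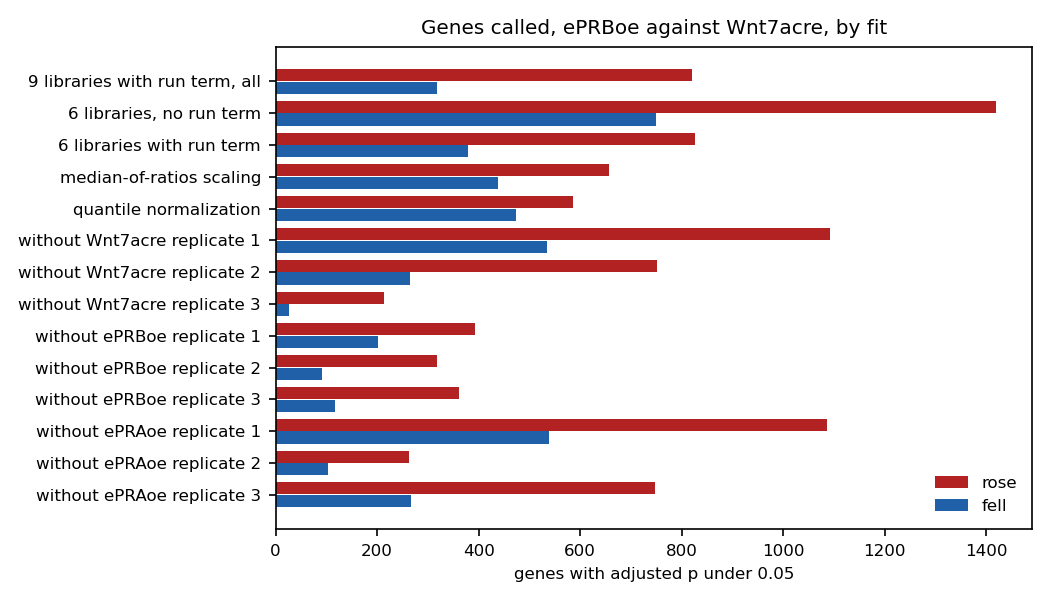
Number of genes that rose (red) and fell (blue) with an adjusted p under 0.05 in the fit used here (top), in fits of other libraries or scalings, and with each of the 9 libraries left out. The shortest pair of bars, 213 and 27, belongs to the fit without Wnt7acre replicate 3.

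Pgr itself, on chromosome 9 (8899833 to 8968611, forward strand, mm10), served as a check of the labels. It was measured at 17.4, 3.82 and 6.62 FPKM in Wnt7acre replicates 1, 2 and 3 and at 38.1, 38.3 and 45.9 FPKM in ePRBoe. Every ePRBoe library was above every control, and Wnt7acre replicate 1 was the highest of the controls. The rise was 4.84-fold (log2 fold change 2.27, SE 0.40, adjusted p = 0.0163), and 2.45 against the control of the same run. A two-sided exact permutation test of the 3 against 3 libraries gave p = 0.1, the smallest that 20 regroupings allow. The call was lost without Wnt7acre replicate 3 (log2 fold change 1.92, adjusted p = 0.184), ePRBoe replicate 2 (2.31, 0.0507), ePRBoe replicate 3 (2.19, 0.0523) or ePRAoe replicate 2 (2.45, 0.0549). Reads were counted per gene, so the values do not separate isoform B from isoform A or the added allele from the animals' own. Wnt7a, which gives the cre line its name, was at 66.1, 63.4 and 40.9 FPKM in Wnt7acre and 50.005, 22.7 and 14.1 FPKM in ePRBoe. Its groups overlapped, and the difference did not pass (log2 fold change -0.49, SE 0.53, adjusted p = 0.604).

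The captured material was epithelial in both groups, but markers of other cells were higher in ePRBoe. Of 24 luminal epithelium markers, all of which were tested, 1 rose and 2 fell, against 6.8% and 2.63% of all genes tested. The median log2 fold change of these markers was -0.42. Without overlap 12 were lower and 4 higher in ePRBoe, against 16.6% and 23.1% of all genes tested. Falls numbered 4 without Wnt7acre replicate 1 or ePRAoe replicate 1 and 3 under either rescaling of the libraries, and the 6 libraries fitted without the run gave 7 falls and 0 rises. Their summed level was 3221 to 3528 FPKM in Wnt7acre and 2953 to 3186 FPKM in ePRBoe. Krt18, a keratin of simple epithelia, stood at 386, 360 and 326 FPKM in Wnt7acre and 380, 335 and 411 FPKM in ePRBoe, which overlapped. Spint1, an inhibitor of epithelial surface proteases, fell by 1.22 from 153, 328 and 229 FPKM to 113, 90.7 and 93.6 FPKM (adjusted p = 0.0181), and the stem cell surface protein Prom1 fell by 0.99 (adjusted p = 0.0286). Elf3, an epithelial transcription factor, rose by 1.01 (adjusted p = 0.0154), from 36.1, 15.3 and 19.8 FPKM to 45.2, 33.3 and 39.4 FPKM, with overlap through Wnt7acre replicate 1. None of these 3 calls held without Wnt7acre replicate 3 or ePRAoe replicate 2 (adjusted p 0.0653 to 0.155), nor did they without ePRBoe replicate 3 (0.0546 to 0.0885). Spint1 and Prom1 were also lost without ePRBoe replicate 2 (0.0641 and 0.0655) and Prom1 without ePRBoe replicate 1 (0.0819).

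Stroma markers made the most uniform move. Of 21 tested, 17 rose and 0 fell, with a median log2 fold change of 1.90, against 6.8% of all genes that rose. Their summed level was 147, 169.8 and 187.6 FPKM in Wnt7acre and 599.4, 688.7 and 764.5 FPKM in ePRBoe, still far below the luminal sum. Col6a1, a chain of the fibroblast collagen VI, was at 7.44, 11.2 and 8.64 FPKM in Wnt7acre and 45.2, 45.8 and 53.4 FPKM in ePRBoe. The groups were far apart, and the rise of 2.43 (SE 0.16, adjusted p = 0.00167) held with any 1 library left out. Hoxa11, a homeobox gene of uterine stroma, rose by 2.48 from 3.95, 5.15 and 4.88 FPKM to 29.7, 23.8 and 23.99 FPKM (adjusted p = 0.0043), again without overlap and with any library left out. Dpt (3.02), Fn1 (2.38) and Mmp2 (2.19), all of the connective tissue matrix, did the same. Rises among the 21 numbered 12 without Wnt7acre replicate 3 or ePRAoe replicate 2. In bulk libraries, more cells of a type and more RNA per cell cannot be told apart, and the part of stromal RNA in the results below was not tested.

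Some immune and vascular markers rose as well, to be set against the 6.8% of all genes tested that rose. Of 12 natural killer and T cell markers 6 rose and 0 fell (median 1.28, 3 called without Wnt7acre replicate 3), and of 13 macrophage and dendritic cell markers 6 rose and 0 fell (median 0.76, 0 called without it, 1 without ePRBoe replicate 1, ePRBoe replicate 2 or ePRAoe replicate 2, and 3 without ePRBoe replicate 3). The macrophage list was not separate between the groups: its summed level was 497.8, 259.7 and 251.8 FPKM in Wnt7acre and 483.4, 531.2 and 432.6 FPKM in ePRBoe, so that Wnt7acre replicate 1 lay above 2 of the ePRBoe libraries. In that list 5 genes were higher without overlap, 4 rose with median-of-ratios scaling, and 1 rose in the 6 libraries fitted without the run. The natural killer and T cell list summed to 29.18 to 53.68 FPKM in Wnt7acre and 85.67 to 134.4 FPKM in ePRBoe, without overlap. Cd3e and Cd3g, which define T cells, were too low to be tested. Gzmc, a granzyme of uterine natural killer cells, was at 0.813, 1.87 and 1.63 FPKM in Wnt7acre and 18.6, 24.1 and 15.9 FPKM in ePRBoe. It rose by 3.26 (SE 0.31, adjusted p = 0.0031), and Gzmb, a related granzyme that can share reads with it, by 2.43 (adjusted p = 0.0030). Tyrobp, an adaptor of activating receptors on myeloid and killer cells, rose by 1.499 (adjusted p = 0.00627, 0.0725 without Wnt7acre replicate 3), from 71.4, 57.9 and 29.6 FPKM to 103, 99.3 and 83.1 FPKM. Of 8 endothelium markers Cdh5, the cadherin of endothelial junctions, rose by 1.87 (adjusted p = 0.011), and so did Eng by 1.67 (adjusted p = 0.0223, lost without Wnt7acre replicate 3, ePRBoe replicate 1 or 2 or ePRAoe replicate 2 at 0.0521 to 0.0786). Of 6 smooth muscle and pericyte markers only Des was called, with a rise of 1.90, and 2 were called without Wnt7acre replicate 3. ePRBoe replicate 2 had the highest sums of the latter lists, 90.0 FPKM of endothelium and 164.2 FPKM of smooth muscle markers, against 55.96 to 57.12 and 63.34 to 68.31 FPKM in the other ePRBoe libraries. Gland markers did not pass: Prss29, a protease of uterine glands, was at 25.6 FPKM in ePRBoe replicate 1 and at 0.451 to 4.12 FPKM in the other 5 libraries.

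**Figure D3:**
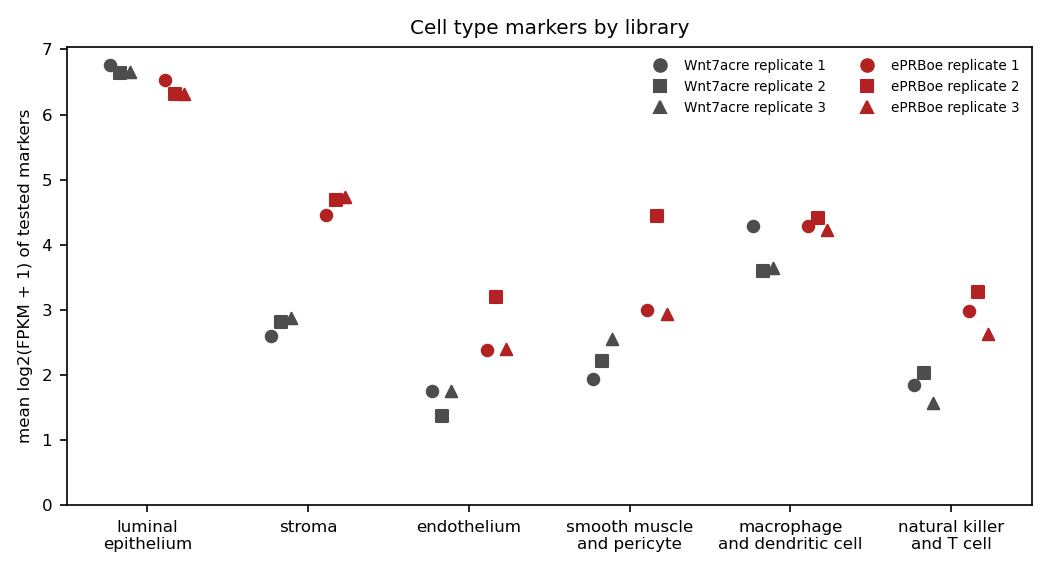
Mean log2(FPKM + 1) of the tested markers of 6 cell types in each of the 3 Wnt7acre (grey) and 3 ePRBoe (red) libraries. Stroma markers lie between 2.59 and 2.88 in Wnt7acre and between 4.46 and 4.73 in ePRBoe, while luminal epithelium markers lie between 6.31 and 6.77 in all 6.

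Ms4a8a and Spink8 led the rises by size. Ms4a8a (chromosome 19, 11067471 to 11081102, reverse strand), a membrane protein of epithelial cells, was at 0.422, 1.26 and 2.04 FPKM in Wnt7acre and 78.9, 105 and 96.2 FPKM in ePRBoe. It went from close to nothing to a high level in all 3 libraries, a rise of 5.19 (SE 0.46, adjusted p = 0.00295). Spink8 (chromosome 9, 109812280 to 109826633, forward strand), a secreted inhibitor of serine proteases, rose by 5.33 (SE 0.73, adjusted p = 0.00862), from 4.93, 1.57 and 2.13 FPKM to 137, 233 and 273 FPKM. Calca, which encodes calcitonin and a related neuropeptide, was listed at 0 in all 3 controls, and its ePRBoe values were 53.0, 29.3 and 10.2 FPKM (adjusted p = 0.0075). Its level varied widely among the ePRBoe libraries. All were above every control, but with 0 in the controls the filter could admit Calca only in that case.

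Slc5a5, Drd4, Pga5 and Tsku were further large rises. Slc5a5 (chromosome 8, 70882889 to 70892757, reverse strand), the sodium iodide symporter of the thyroid, rose by 3.73 (SE 0.35, adjusted p = 0.0031), from 2.80, 5.14 and 6.21 FPKM to 152, 102 and 141 FPKM. The libraries of each group were close together and far from the other. Drd4, a dopamine receptor, rose by 3.419 (adjusted p = 0.0135), from 7.57, 4.04 and 9.56 FPKM to 147, 121 and 166 FPKM. Pga5, a pepsinogen, was at 1.99, 1.93 and 4.03 FPKM and then at 47.9, 79.7 and 64.5 FPKM (log2 fold change 3.38, adjusted p = 0.00295). Tsku, a secreted leucine-rich protein that modulates growth factors, rose by 3.11 (SE 0.22, adjusted p = 0.00245), from 6.46, 1.93 and 6.76 FPKM to 49.9, 76.2 and 57.4 FPKM. Spint3 (2.87), a Kunitz-type protease inhibitor, and Kank4 (3.29), a cytoskeletal adaptor, were among the other rises without overlap. Kank4 was under 1 FPKM in every control, so the filter fixed its lack of overlap. Ms4a8a, Slc5a5, Pga5, Tsku, Spint3 and Kank4 were called with any 1 library left out. The calls of Spink8, Calca and Drd4 were lost without Wnt7acre replicate 3 (adjusted p = 0.107, 0.079 and 0.174).

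**Figure D4:**
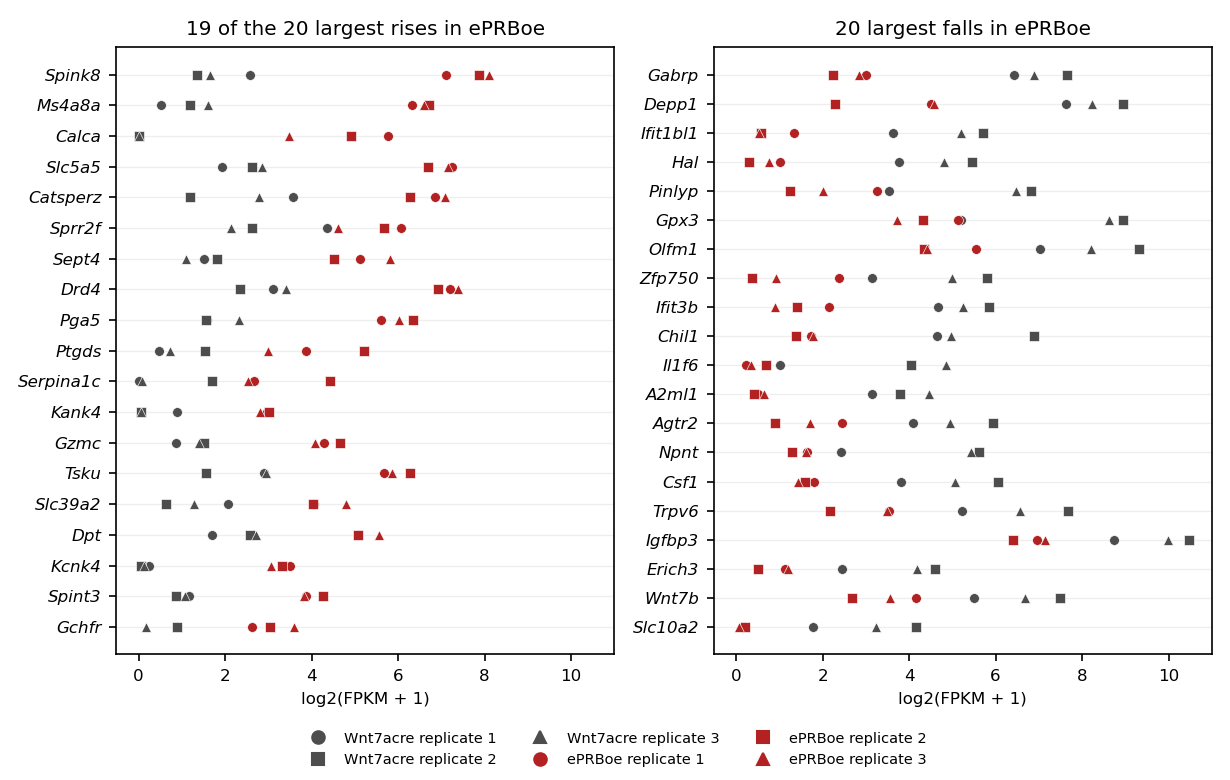
Values of log2(FPKM + 1) in each Wnt7acre (grey) and ePRBoe (red) library for 19 of the 20 largest rises (left) and the 20 largest falls (right) among called genes without overlap and with at least 5 FPKM in the higher group. Spink8 and Gabrp head the panels, and for Gpx3 and Pinlyp on the right Wnt7acre replicate 1 lies close to the ePRBoe libraries.

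The largest fall was that of Gabrp (chromosome 11, 33550781 to 33578959, reverse strand), a GABA receptor subunit found in epithelia. Gabrp was at 85.2, 199 and 117 FPKM in Wnt7acre and at 7.02, 3.71 and 6.21 FPKM in ePRBoe. The level was low in all 3 of them, and Gabrp fell by 4.26 on the log2 scale (SE 0.27, adjusted p = 0.00167). Igfbp3, a secreted binder of insulin-like growth factors and among the highest genes of the controls, went from 425, 1428 and 1017 FPKM to 123, 83.7 and 141 FPKM. It fell by 3.05 (SE 0.26, adjusted p = 0.00277). Olfm1, a secreted glycoprotein studied in embryo attachment, was at 130, 636 and 294 FPKM and then at 46.0, 19.2 and 20.3 FPKM, and fell by 3.70 (SE 0.43, adjusted p = 0.00549). Depp1, which FOXO factors control, dropped by 4.24 (adjusted p = 0.0286), from 197, 495 and 297 FPKM to 21.8, 3.87 and 22.9 FPKM. For Igfbp3, Olfm1 and Depp1 alike, Wnt7acre replicate 1 was the lowest control, and no library overlapped.

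Chil1, a secreted chitinase-like protein, fell by 3.58 (adjusted p = 0.00448), from 24.1, 118 and 30.2 FPKM to 2.29, 1.62 and 2.43 FPKM. A2ml1, a secreted protease inhibitor, fell by 3.48 (adjusted p = 0.0043) and was under 1 FPKM in every ePRBoe library. Csf1, the growth factor of macrophages, had 13.1, 65.0 and 32.2 FPKM in Wnt7acre against 2.48, 1.99 and 1.69 FPKM in ePRBoe (log2 fold change -3.24, adjusted p = 0.011). Zfp750, a factor of epidermal differentiation, fell by 3.70 (adjusted p = 0.013), from 7.88, 54.3 and 30.8 FPKM to 4.19, 0.281 and 0.891 FPKM. Gpx3, an extracellular glutathione peroxidase, had 35.5 FPKM in Wnt7acre replicate 1, beside 34.1 FPKM in ePRBoe replicate 1, and 491 and 391 FPKM in the other controls. Its fall of 3.78 (adjusted p = 0.0419) thus rests on 2 control libraries. Gabrp, Igfbp3, Olfm1, Chil1 and A2ml1 were called with any library left out, while Csf1, Zfp750, Depp1 and Gpx3 were not called without Wnt7acre replicate 3 (adjusted p = 0.14, 0.139, 0.231 and 0.341). Zfp750, Depp1 and Gpx3 were lost without ePRAoe replicate 2 as well (0.0565, 0.0943 and 0.096), and Gpx3 also without Wnt7acre replicate 2, ePRAoe replicate 3 or any ePRBoe library (0.0601 to 0.105).

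Of 13 genes of nuclear receptors and other proteins linked to steroid hormones 2 rose, Pgr among them, and 0 fell (median 0.39). There was 1 rise without ePRBoe replicate 1 or under either rescaling, and 0 without Wnt7acre replicate 3, ePRBoe replicate 2, ePRBoe replicate 3 or ePRAoe replicate 2. Esr1, the estrogen receptor of the epithelium, was nearly level at 39.4, 42.3 and 42.7 FPKM against 38.03, 33.0 and 30.2 FPKM (log2 fold change -0.23, SE 0.17, adjusted p = 0.463). Pgrmc1 and Pgrmc2, membrane proteins linked to progesterone, differed by -0.10 and 0.40, and the retinoid receptors Rxra and Rara and the orphan receptor Nr2f2 by 0.18, 0.27 and 0.55, none of which passed. Of 20 receptor co-chaperones and coregulators 2 rose and 0 fell (median -0.01), against 6.8% and 2.63% of all genes tested. The 2 rises were Fkbp5, a co-chaperone and a standard readout of steroid receptor activity, and the corepressor Nrip1. Fkbp5 was at 19.6, 12.99 and 17.7 FPKM in Wnt7acre and 39.1, 54.3 and 41.1 FPKM in ePRBoe, without overlap (log2 fold change 1.26, SE 0.18, adjusted p = 0.00983, 0.0992 without Wnt7acre replicate 3). Nrip1 rose by 0.86 (adjusted p = 0.028) and was lost without Wnt7acre replicate 3, ePRAoe replicate 2 or any ePRBoe library (0.0694 to 0.155).

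Most of the genes that progesterone is known to induce in the uterus did not pass. Of 20 tested, 5 rose and 0 fell (median 0.87), against 6.8% of all genes that rose. Of the 20, 17 were above 0. Without overlap 11 were higher and 1 lower, against 23.1% and 16.6% of all genes tested. Without Wnt7acre replicate 3 there were 2 rises. Without Wnt7acre replicate 1 or ePRAoe replicate 1 there were 9 rises and 1 fall, and the 6 libraries fitted without the run gave 8 and 1. The list was drawn up with earlier results of these data known. Hsd11b2, which inactivates glucocorticoids, was at 8.84, 12.1 and 15.8 FPKM in Wnt7acre and 64.1, 48.9 and 65.7 FPKM in ePRBoe. Hsd11b2 rose by 2.06 (SE 0.23, adjusted p = 0.00486), and every ePRBoe library stood well above the controls. Gata2, a transcription factor that acts with the receptor in the epithelium, rose by 1.80 (SE 0.22, adjusted p = 0.00619), from 54.9, 21.6 and 47.0 FPKM to 124, 149 and 162 FPKM. Lrp2, an endocytic receptor, was called (1.19, adjusted p = 0.0171), but Wnt7acre replicate 1 at 197 FPKM was above all 3 ePRBoe libraries (172, 189 and 162 FPKM), and the call was lost without Wnt7acre replicate 3 or ePRBoe replicate 1 or 2 (0.0516 to 0.178). Calca and Fkbp5, described above, were the remaining calls.

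The other members did not pass, and not all were higher. Areg, an EGF receptor ligand, stood at 30.8, 8.32 and 4.76 FPKM in Wnt7acre and 63.4, 62.9 and 159 FPKM in ePRBoe. No library overlapped, but the spread was large (log2 fold change 2.96, SE 0.92, adjusted p = 0.0913). Cyp26a1, a retinoic acid hydroxylase that progesterone induces in this epithelium, was lower in all 3 ePRBoe libraries, at 237, 104 and 174 FPKM against 516, 701 and 610 FPKM. The difference of -2.27 did not pass (SE 0.84, adjusted p = 0.14), but Cyp26a1 was the fall called without Wnt7acre replicate 1 (0.0469) or ePRAoe replicate 1 (0.0493) and in the 6 libraries fitted without the run (0.0079). Sox17, a partner of Gata2, differed by 0.79 (adjusted p = 0.123), Alox15, a lipoxygenase, by 0.99 (0.197), and Hdc, which makes histamine, by 0.60 (0.255). Acod1, which makes itaconate, was at -0.07 (0.94), and the kinase Sgk1 at 0.26. Tsc22d3 (0.44), Per1 (0.41), Errfi1 (-0.44) and Klf9 (0.00) did not pass either. Il13ra2 (1.46, adjusted p = 0.0755) and Zbtb16 (0.96, 0.0928) came closer to the threshold.

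In the hedgehog pathway targets rose and the epithelial ligand did not pass. Ihh, the ligand, was at 46.7, 29.7 and 24.9 FPKM in Wnt7acre and 34.4, 46.1 and 38.4 FPKM in ePRBoe, which overlapped (log2 fold change 0.31, SE 0.38, adjusted p = 0.657, and -0.35 without Wnt7acre replicate 3). Gli1, a transcription factor and target of the pathway, rose by 2.36 (SE 0.25, adjusted p = 0.00448), from 0.872, 0.851 and 0.997 FPKM to 7.16, 7.83 and 8.55 FPKM. Hand2, a stromal factor downstream of progesterone, rose by 2.21 (adjusted p = 0.00549), from 2.28, 4.96 and 3.27 FPKM to 19.99, 14.01 and 14.3 FPKM. Neither gene overlapped between the groups, which the filter fixed for Gli1, under 1 FPKM in every control. Gli1 and Hand2 were both called with any library left out. Of 13 members 5 rose and 0 fell (median 0.73), with Gli2 and Gli3 also among the rises. Without Wnt7acre replicate 3, ePRAoe replicate 2 or any ePRBoe library there were 2 rises in the list, and with quantile normalization also 2. Hand2 is among the stroma markers, whose summed level was higher in every ePRBoe library.

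Wnt genes were split between the 2 directions. Of 27 members 4 rose and 1 fell (median 0.37), of which 1 rise and 0 falls were left without Wnt7acre replicate 3. Wnt7b, an epithelial ligand that estrogen induces, fell by 3.00 (SE 0.43, adjusted p = 0.00948), from 44.6, 178 and 102 FPKM to 16.8, 5.39 and 10.7 FPKM. Lef1, a transcription factor of the pathway, rose by 2.24 (adjusted p = 0.00649), from 2.495, 3.65 and 2.93 FPKM to 16.1, 12.9 and 13.2 FPKM. Both were free of overlap. Wnt6 rose by 1.59 from under 1 FPKM to between 1.76 and 2.57 FPKM. The adjusted p without Wnt7acre replicate 3 was 0.125 for Wnt7b and 0.0759 for Wnt6, whereas Lef1 was called with any library left out. Without ePRBoe replicate 2 or ePRAoe replicate 2 there were 2 rises, and without Wnt7acre replicate 1 or ePRAoe replicate 1 there were 2 falls.

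Of 15 Notch genes Hes1, a target of Notch receptors, was the only call. Hes1 fell by 0.89 (adjusted p = 0.0207), from 53.7, 33.3 and 44.9 FPKM to 27.2, 21.8 and 21.1 FPKM. In the BMP and TGF-beta pathway 5 of 24 genes rose and 0 fell (median 0.32), against 6.8% and 2.63% of all genes tested. The rises included the ligand Bmp7 (1.78, adjusted p = 0.0294), the antagonist Nog (1.36, 0.0221) and the inhibitory Smad7 (1.37, 0.02). There was 1 rise without Wnt7acre replicate 3, ePRBoe replicate 1 or ePRBoe replicate 2, without ePRBoe replicate 3 there were 2, and without ePRAoe replicate 2 there were 0. The Hes1 call was lost without Wnt7acre replicate 3, ePRBoe replicate 2 or 3 or ePRAoe replicate 2 (0.0658 to 0.171). None of the 11 genes of the EGF family and its ERBB receptors passed (median -0.25, but 1 rise without Wnt7acre replicate 1 or ePRAoe replicate 1, 1 fall with median-of-ratios scaling and 2 with quantile normalization).

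The called prostaglandin genes lie at several steps, from the release of the precursor to a receptor. Pla2g10, a secreted phospholipase that releases arachidonic acid, was at 38.8, 5.23 and 25.9 FPKM in Wnt7acre and 145, 130 and 182 FPKM in ePRBoe. Pla2g10 rose by 2.78 (SE 0.47, adjusted p = 0.0145). Hpgd, which oxidizes prostaglandins, rose by 1.36 (adjusted p = 0.0386), from 1.15, 0.619 and 1.86 FPKM to 4.82, 7.83 and 4.07 FPKM, and the prostaglandin D synthase Ptgds by 3.37 (adjusted p = 0.0326). Ptger2, a receptor for prostaglandin E, fell by 0.91 (adjusted p = 0.0308), from 82.1, 69.0 and 56.0 FPKM to 35.7, 26.6 and 30.3 FPKM. No overlap was seen in these 4 genes. Of 16 members 3 rose and 1 fell (median 0.56), and 0 and 0 without Wnt7acre replicate 3 or without ePRAoe replicate 2. Without ePRBoe replicate 1 or 2 there was 1 rise, and without Wnt7acre replicate 1 or ePRAoe replicate 1 there were 5. The fall of Ptger2 was also lost without ePRBoe replicate 2 or 3 (adjusted p = 0.0953 and 0.0895), and 2 genes fell without Wnt7acre replicate 2 or ePRAoe replicate 3.

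Promoter sequences were examined for the palindromic element ACANNNTGT, the spacing of the consensus element that progesterone and glucocorticoid receptors bind. RefSeq promoters (GRCm38.p6, 250 bases before to 50 after the start) were found for 9476 of the 12068 genes, and 326 of these (3.44%) held the element. It reads the same on both strands, and 23 promoters (0.243%) had it overlapping AGAACA, a single copy of the element that was searched on both strands and found in 1002 (10.6%). Too few of the called genes had a promoter in the table, 609 of 821 rises and 241 of 317 falls, so a comparison of shares between rises and falls is void. Of the 129 named genes that were called, only 92 had a promoter. The element was found in 4 of these, a count that need not be complete for the named genes. Of the 4, 2 rose (Pla2g10 and Hpgd) and 2 fell (Hal and Olfm1). All 4 are shown, with the element in capitals and each sequence on the strand of its gene.
Pla2g10: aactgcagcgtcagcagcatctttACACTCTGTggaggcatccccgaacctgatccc
Hpgd: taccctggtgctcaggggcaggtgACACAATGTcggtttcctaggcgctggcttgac
Hal: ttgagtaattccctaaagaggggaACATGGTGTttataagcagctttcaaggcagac
Olfm1: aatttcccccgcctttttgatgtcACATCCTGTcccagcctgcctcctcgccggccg
The first lies at chr16:13730659-13730715 on the reverse strand, with the element beginning 207 bases before the start of the RefSeq transcript, from which the next distances are also counted and which can differ from the GENCODE positions given elsewhere. The Hpgd sequence is chr8:56294435-56294491 on the forward strand (93 bases before), that of Hal chr10:93488708-93488764 on the forward strand (36 bases) and that of Olfm1 chr2:28192892-28192948 on the forward strand (177 bases). A match of these letters is a description and not evidence of binding.

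Hal, whose product breaks down histidine, was at 12.7, 42.9 and 27.1 FPKM in Wnt7acre and 1.01, 0.219 and 0.685 FPKM in ePRBoe. All ePRBoe libraries were near the bottom of the scale, and Hal fell by 3.93 (SE 0.36, adjusted p = 0.00307), also with any library left out. Amdhd1, a later enzyme of the same breakdown, fell by 1.41 (adjusted p = 0.0341), from 16.99, 19.6 and 21.5 FPKM to 9.95, 7.03 and 7.25 FPKM, and the arginase Arg1 fell by 1.04 (adjusted p = 0.0307). Gatm, which makes the precursor of creatine, rose by 1.46 (adjusted p = 0.0226), from 6.55, 8.32 and 5.13 FPKM to 13.5, 19.5 and 12.7 FPKM. Of 17 histidine and polyamine genes 2 rose and 3 fell (median -0.19), and without Wnt7acre replicate 3 there was 1 of each. There was 1 fall without any 1 of the ePRBoe libraries or without ePRAoe replicate 2, with 0 rises save for 1 without ePRBoe replicate 3, and 1 rise without Wnt7acre replicate 2 or ePRAoe replicate 3 or under either rescaling of the libraries.

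A retinoid gene was among the rises. Stra6, the membrane receptor that takes up retinol, rose by 2.29 (SE 0.22, adjusted p = 0.0031), from 11.9, 7.03 and 8.50 FPKM to 37.7, 43.4 and 58.5 FPKM. Hsd17b2, which inactivates estradiol, fell by 2.66 (adjusted p = 0.02), but its controls ran from 1.90 over 13.8 to 30.6 FPKM, against 0.297 to 1.37 FPKM. Stra6 was called with any library left out, and Hsd17b2 was not called without Wnt7acre replicate 3 (0.231) or without ePRBoe replicate 2 (0.0592). Of 21 genes of steroid and retinoid metabolism 5 rose and 2 fell (median 0.33). Without Wnt7acre replicate 3 there were 3 rises and 0 falls, and 3 rises also without ePRBoe replicate 1 or 3 or ePRAoe replicate 2. There were 0 falls without ePRBoe replicate 2, 1 without ePRBoe replicate 3 or ePRAoe replicate 2, and 5 without Wnt7acre replicate 1 or ePRAoe replicate 1. In fatty acid synthesis the desaturases Fads2 (2.20, adjusted p = 0.0192) and Fads1 (1.60, 0.0133) rose without overlap. Fads1 was not called once Wnt7acre replicate 3 or ePRAoe replicate 2 was left out (0.131 and 0.0544), nor Fads2 without ePRBoe replicate 1 or 2 or ePRAoe replicate 2 (0.0537 to 0.0631). In all 3 of 31 cholesterol and fatty acid genes rose (median 0.11), against 6.8% of all genes tested. Of these rises 1 was left without Wnt7acre replicate 3 or ePRBoe replicate 1 or 2, and 0 without ePRAoe replicate 2.

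Of 24 ion channel genes 4 fell and 0 rose (median 0.19), led by Gabrp. There were 2 rises and 5 falls without Wnt7acre replicate 1 or ePRAoe replicate 1, 1 and 5 with quantile normalization, and 4 and 5 in the 6 libraries fitted without the run. Without overlap 7 genes were higher and 7 lower, against 23.1% and 16.6% of all genes tested. Scnn1g, which encodes part of an epithelial sodium channel, was at 3.423, 11.1 and 4.44 FPKM in Wnt7acre and 0.101, 0 and 0.228 FPKM in ePRBoe. It fell by 2.44 (adjusted p = 0.00948, 0.075 without Wnt7acre replicate 3) and was listed at or near 0 in every ePRBoe library. Trpv6, a calcium channel, fell by 3.19 (adjusted p = 0.0302), from 36.6, 202 and 93.0 FPKM to 10.6, 3.48 and 10.2 FPKM, and was lost without all but Wnt7acre replicate 1 and ePRAoe replicate 1 (0.0508 to 0.273). Without Wnt7acre replicate 3 there was 1 fall, and without any 1 of the ePRBoe libraries, ePRAoe replicate 2 or ePRAoe replicate 3 there were 2. Solute carriers were mixed, with 3 rises and 5 falls of 40 (median -0.04), against 6.8% and 2.63% of all genes tested. In this list there were 0 falls without Wnt7acre replicate 3, 2 without any 1 of the ePRBoe libraries or ePRAoe replicate 2, and 1 rise without ePRAoe replicate 2. Slc39a2, a zinc importer, rose by 3.05, from 3.19, 0.554 and 1.43 FPKM to 15.8, 15.4 and 27.0 FPKM. Slc46a2 fell by 2.48, from 28.5, 87.6 and 56.9 FPKM to 7.19, 5.42 and 7.27 FPKM, and the lactate transporter Slc16a1 by 2.11, from 6.35, 17.7 and 11.1 FPKM to 2.28, 1.24 and 1.73 FPKM. These 3 were free of overlap and were not called without Wnt7acre replicate 3 (adjusted p = 0.109, 0.133 and 0.0591), nor Slc39a2 without ePRAoe replicate 2 (0.0534).

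Genes that interferon induces were lower or did not pass. Of 27, 4 fell and 0 rose (median -0.75), against 2.63% and 6.8% of all genes tested, and 0 fell without Wnt7acre replicate 3. Ifit3 was at 35.4, 56.9 and 40.1 FPKM in Wnt7acre and 5.74, 4.83 and 2.02 FPKM in ePRBoe, and fell by 2.83 (SE 0.39, adjusted p = 0.00862). Ifit3b and Ifit1bl1, close relatives that can share reads with the other Ifit genes, fell by 3.63 and 4.10, and Rsad2, an antiviral enzyme, by 2.16 (adjusted p = 0.0443). All 4 were without overlap, and Rsad2 lost its call without 7 of the 9 libraries (0.0575 to 0.344). Of 18 antigen presentation genes none passed (median 0.28, 1 rise with quantile normalization), and of 23 chemokines, cytokines and receptors Csf1 and Il1a fell (median -0.09, 0 falls without Wnt7acre replicate 3). Median-of-ratios scaling and quantile normalization each gave 4 falls in the latter list.

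Few genes of the epithelial architecture were called, though many were lower. Of 38 tight junction and polarity genes 1 rose and 2 fell (median -0.18, with 12 above 0). Without overlap 17 were lower and 6 higher in ePRBoe, against 16.6% and 23.1% of all genes tested. The 6 libraries fitted without the run gave 2 rises and 5 falls. Gja1, a gap junction protein, rose by 2.48 (adjusted p = 0.0102, called with any library left out), while Cldn8 and the desmosomal Dsc2 fell by 1.03 and 1.63. Both falls were lost without Wnt7acre replicate 3 (0.275 and 0.193), Wnt7acre replicate 2, ePRAoe replicate 2 or ePRAoe replicate 3 (0.0581 to 0.111). Cldn8 was also lost without ePRBoe replicate 1 or 3 (0.102 and 0.109) and Dsc2 without ePRBoe replicate 2 (0.0697). With median-of-ratios scaling 5 of the list fell, and without Wnt7acre replicate 1 or ePRAoe replicate 1 there were 4. None of 21 mucin and glycosyltransferase genes passed with all libraries (median 0.11). Without Wnt7acre replicate 1 or ePRAoe replicate 1 there were 1 rise and 4 falls, without ePRBoe replicate 1 there was 1 rise, and falls numbered 2 with median-of-ratios scaling, 1 with quantile normalization and 3 in the 6 libraries fitted without the run.

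The extracellular matrix changed in many more genes, of 41 of which 30 rose and 2 fell (median 1.65, against 0.10 for all genes tested). There were 14 rises and 0 falls without Wnt7acre replicate 3, without ePRBoe replicate 2 16 and 0, without ePRBoe replicate 3 18 and 1, without ePRAoe replicate 2 15 and 1, and without ePRBoe replicate 1 there was 1 fall. The rises included many of the stroma markers above. The falls were of Lama1 and Lama3, laminin chains of basement membranes. Lama3 went from 69.4, 97.6 and 88.6 FPKM to 38.1, 27.9 and 24.5 FPKM, without overlap, and fell by 1.39 (SE 0.24, adjusted p = 0.0143, lost without Wnt7acre replicate 3 at 0.172 and without ePRBoe replicate 2). Lama1 fell by 1.81 (adjusted p = 0.0253) and was not called without Wnt7acre replicate 3 (0.262), ePRAoe replicate 2 or any ePRBoe library. Serpine2, a secreted protease inhibitor, rose by 2.79 (SE 0.44, adjusted p = 0.0117, 0.137 without Wnt7acre replicate 3 and 0.0508 without ePRAoe replicate 2), from 34.5, 9.21 and 21.2 FPKM to 196, 161 and 144 FPKM.

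**Figure D5:**
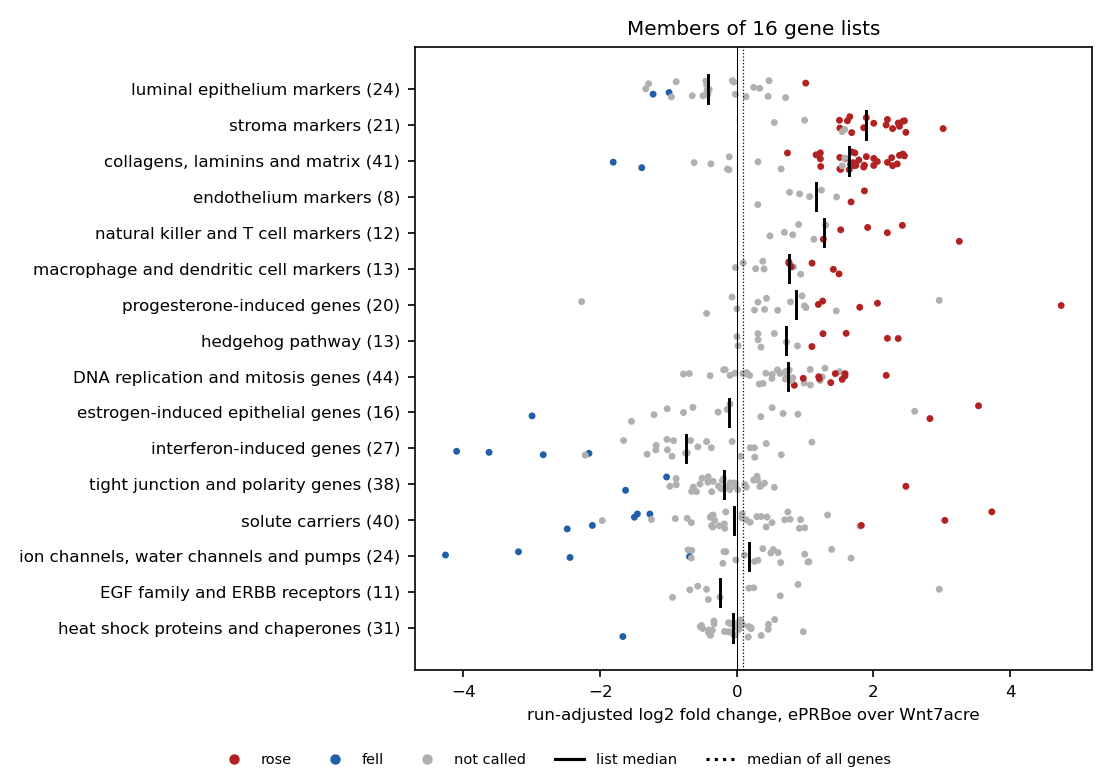
Run-adjusted log2 fold change of ePRBoe over Wnt7acre for the tested members of 16 gene lists, with the number tested in brackets. Points are genes, coloured red where they rose, blue where they fell and grey where they were not called, bars are list medians and the dotted line is the median of all genes tested, 0.10. Stroma and matrix lists have medians of 1.90 and 1.65 and the interferon list one of -0.75.

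Transcription factors changed in both directions. Of 33 homeobox, forkhead, SOX, GATA and other factors 8 rose and 4 fell (median 0.37), and without Wnt7acre replicate 3 there were 4 and 0. Without ePRAoe replicate 2 there were 4 rises and 2 falls, and without an ePRBoe library 1 or 2 falls. Msx1, a homeobox factor of the receptive epithelium, rose by 1.47 (adjusted p = 0.0145), from 12.8, 8.42 and 9.92 FPKM to 38.8, 22.2 and 30.2 FPKM. Klf5, which is needed in the luminal epithelium for implantation, fell by 0.75 (adjusted p = 0.0321), from 123, 146 and 144 FPKM to 89.2, 80.6 and 85.3 FPKM. Neither gene overlapped between the groups. Both were not called without Wnt7acre replicate 3 (adjusted p = 0.141 and 0.188) or ePRAoe replicate 2 (0.0597 and 0.0934), nor Klf5 without any ePRBoe library (0.0855 to 0.108). Xbp1, a factor of secretory cells and the only called member of 31 chaperone and stress genes, was at 156, 295 and 192 FPKM and then at 66.5, 53.4 and 60.7 FPKM. It fell by 1.67 (SE 0.18, adjusted p = 0.00448), also with any library left out.

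The remaining lists held few calls or calls in both directions. Of 16 estrogen-induced epithelial genes 2 rose and 1 fell (median -0.12), the rises being Sprr2f, a small proline-rich protein, and Padi2, a peptidylarginine deiminase whose groups overlapped and whose call was lost without ePRBoe replicate 1 or 3. Sprr2f was at 19.3, 5.12 and 3.37 FPKM in Wnt7acre and 65.6, 50.3 and 23.5 FPKM in ePRBoe, and rose by 3.54 (SE 0.45, adjusted p = 0.00703, 0.0556 without Wnt7acre replicate 3). Of 23 implantation and receptivity genes 1 rose (Msx1) and 2 fell (Klf5 and Olfm1), with a median of 0.00. Of 19 keratin and cornified envelope genes 1 rose and 3 fell (median 0.00), and of 13 integrins Itga9 alone rose (median -0.38). Of 17 complement and defence genes C1s1 and C1ra, proteases of the first complement component, rose by 1.93 each, and 2 fell (median -0.14). Chil1, described above, was among the falls. Matrix proteases and inhibitors had 6 rises and 3 falls of 21 (median 0.45), serine and cathepsin proteases and inhibitors 9 and 4 of 40 (median -0.02), glutathione and redox genes 5 and 3 of 28 (median 0.02), and calcium binding and secretion genes 7 and 2 of 22 (median 0.43). Without Wnt7acre replicate 3 these 4 lists had 2, 3, 0 and 3 rises and 0 falls each, and without ePRAoe replicate 2 they had 1, 5, 0 and 3 rises and 1, 0, 0 and 0 falls. Their counts were 2, 7, 1 and 5 rises with 2, 4, 2 and 2 falls without ePRBoe replicate 1, 2, 6, 1 and 3 with 0, 0, 1 and 1 without ePRBoe replicate 2, and 4, 6, 0 and 5 with 0, 1, 1 and 1 without ePRBoe replicate 3. Without Wnt7acre replicate 2 or ePRAoe replicate 3 the matrix proteases had 4 rises and the redox genes 2 falls, and without Wnt7acre replicate 1 or ePRAoe replicate 1 the first 2 of these lists had 5 and 7 falls. In the estrogen, implantation, complement, keratin and integrin lists, without Wnt7acre replicate 3, there were 1, 0, 2, 0 and 0 rises and 0, 2, 1, 0 and 0 falls, and without Wnt7acre replicate 1 or ePRAoe replicate 1 there were 3, 3, 3, 3 and 2 rises and 3, 3, 3, 3 and 1 falls. The implantation list had 1 fall without any 1 of the ePRBoe libraries or ePRAoe replicate 2, the last also with 0 rises. The keratin list had 1 fall without ePRBoe replicate 2 or 3, 0 without ePRAoe replicate 2, and 5 under either rescaling. Quantile normalization left 3 rises among the matrix proteases and 2 among the redox genes, which had 3 with median-of-ratios scaling, and these gave 2 and 3 falls in the estrogen list. The single red blood cell gene tested, Alas2, did not pass.

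Of 44 DNA replication and mitosis genes 10 rose and 0 fell (median 0.75), against 6.8% and 2.63% of all genes tested. Mki67, the proliferation antigen, was at 7.36, 5.65 and 4.19 FPKM in Wnt7acre and 13.5, 10.1 and 13.5 FPKM in ePRBoe, without overlap, and rose by 1.54 (SE 0.31, adjusted p = 0.0237). Ube2c, which drives exit from mitosis, rose by 2.19 (adjusted p = 0.015), from 13.1, 7.02 and 5.72 FPKM to 35.1, 18.7 and 35.8 FPKM. None of the 44 rose without Wnt7acre replicate 3 or ePRAoe replicate 2. There were 2 rises without ePRBoe replicate 1 or 3, 4 without ePRBoe replicate 2, 5 without Wnt7acre replicate 2 or ePRAoe replicate 3, and 3 with quantile normalization. Stromal and natural killer markers, which come from cells that can divide, were higher in the same libraries, and their part in the rise was not tested. Of 21 immediate early genes Fosl2 (-0.87) and Klf6 (-1.03) fell and 0 rose. There were 0 falls without Wnt7acre replicate 3 or ePRAoe replicate 2, and 1 without Wnt7acre replicate 2, ePRAoe replicate 3 or ePRBoe replicate 2 or 3. Median-of-ratios scaling gave 4 falls. Without Wnt7acre replicate 1 or ePRAoe replicate 1 there were 2 rises and 4 falls, and the 6 libraries fitted without the run gave 4 rises and 2 falls. The list had a median of -0.20, but of 0.48 against the control of the same run alone.

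The libraries with extra isoform A were set beside these. Pgr reached the same range with isoform A, 41.7, 49.5 and 42.8 FPKM, and differed by -0.10 between ePRBoe and ePRAoe (SE 0.40, adjusted p = 0.91). In the test of ePRBoe against ePRAoe 40 genes passed (0.331%), of which 39 were higher in ePRBoe (0.323%). Of the 821 rises 32 were among them and of the 317 falls 2. The 40 rest on few libraries, since 0 passed without ePRBoe replicate 1, ePRBoe replicate 2 or ePRAoe replicate 2, at which point 1461, 1638 and 893 genes had an unadjusted p under 0.05. There were 9 without Wnt7acre replicate 3, 22 without Wnt7acre replicate 2 or ePRAoe replicate 3, 26 without ePRBoe replicate 3, and 575 and 566 without Wnt7acre replicate 1 or ePRAoe replicate 1.

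Calca was listed at 0.302, 0.151 and 0.151 FPKM in ePRAoe, far below its 10.2 to 53.0 FPKM in ePRBoe (log2 difference 4.49, adjusted p = 0.0384). Spint3 stood at 4.39, 3.29 and 1.65 FPKM in ePRAoe against 13.6, 18.1 and 13.2 FPKM (log2 difference 1.92, adjusted p = 0.0362). Gabrp was at 0.116, 0.603 and 1.07 FPKM in ePRAoe, lower still than its 3.71 to 7.02 FPKM in ePRBoe (log2 difference 2.09, adjusted p = 0.0362). Immune markers were among the others. Tyrobp was at 30.9, 16.4 and 22.4 FPKM in ePRAoe (log2 difference 2.61, adjusted p = 0.0105), and the natural killer gene Nkg7 at 5.99, 2.81 and 6.55 FPKM, against 20.8, 19.4 and 15.0 FPKM in ePRBoe (2.40, 0.0128). In their own comparison with the same controls, ePRAoe libraries had 382 of the 821 rises and 287 of the 317 falls called in the same direction. The 2 comparisons share their control libraries and the same fit. In it the ePRAoe libraries also help to set the run term of the ePRBoe comparison, so this is no independent support. The share of all genes tested that were called in ePRAoe is not given beside these counts, so their size cannot be judged.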

How the data were processed

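Per the submitters' processing notes, STAR 2.5.2b (alignment, mm10), featureCounts 1.5.0-p1, edgeR 3.28.0 and limma 3.42.2 were used. The authors deposited FPKM per gene symbol and library in 1 table, per the file headers. Which annotation, strand setting and gene lengths they used is not given, so reads of overlapping and antisense genes may not be separated. No read counts or depths were used. Steps between the low values of 1 gene give an approximate depth of 11.3 M reads, the median over genes with such steps. Of the rows, 4239 stood out of alphabetical order, with 822 of the 1138 calls. The length implied by the steps correlated with annotated length (Spearman's rho 0.779 over 27 genes, against 0.568 over 198 genes of rows in order), as a description across genes.

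Values were tested as log2(FPKM + 1) with limma 3.58.1 in R 4.3.3, and folds are on that scale. All 9 libraries were fitted with terms for genotype and run, with a variance trend (4 residual and 3.63 prior degrees of freedom), two-sided, with Benjamini-Hochberg adjustment over the 12068 genes tested and a threshold of 0.05. The run is named in the labels. All ePRBoe libraries, Wnt7acre replicate 3 and ePRAoe replicate 2 shared run 1, the replicates Wnt7acre 2 and ePRAoe 3 run 2, and the replicates numbered 1 of Wnt7acre and ePRAoe run 3. Every ePRBoe library was thus compared across runs with the help of the ePRAoe libraries. The procedure was tested on simulated data. Genes named were Pgr, Wnt7a, the 20 largest changes in each direction without overlap and with at least 5 FPKM in the higher group, up to 4 called members of each of 41 gene lists (where fewer than 2 were called, also the 2 highest), and the steroid receptors and progesterone-induced genes with at least 10 FPKM in a library. Krt18, Lama1, Lama3 and Gli2 were named after their values were seen. A few genes that this rule takes are not reported here. Members and lists were chosen with earlier results of these data known. Positions are from GENCODE M21, in which 14970 symbols (98.8%) were found.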

Additional observations from a re-analysis of the deposited data

How the results depend on the processing

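Of the 129 called genes named by the rule, none changed direction under any alternative, and 37 were called with any 1 library left out. Without Wnt7acre replicate 3, 89 lost the call, without ePRAoe replicate 2, 59, and without an ePRBoe library 34 to 44. The cause was not tested. Leaving out 1 library in turn gave 213 to 1092 rises, 27 to 539 falls, a log2 fold change of Pgr of 1.92 to 2.56, and 0 to 575 genes between ePRBoe and ePRAoe. Without a term for run, the 9 libraries gave 626 falls and 7 genes between ePRBoe and ePRAoe, and the 6 libraries 1419 rises and 750 falls. A mean of at least 5 FPKM, which leaves fewer genes to test, gave 447 rises. Between ePRBoe and ePRAoe 19 genes passed with no filter and 15 with quantile normalization. The label numbers do not pair the libraries: deviations of same-numbered ePRBoe and Wnt7acre libraries correlated at -0.0765, -0.23 and -0.0907. With the replicate block, in place of run, 977 genes rose and 460 fell, and 4 differed between ePRBoe and ePRAoe. The median of all genes, 0.10, moved to -0.00456 with median-of-ratios scaling and -0.0281 with quantile normalization. Counts with pseudocounts of 0.1 and 0.5, TPM scaling, other moderation or filtering over 9 libraries stayed within 1.5 times of those reported.

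Reversals were seen only in genes that did not pass. Without a run term in 9 or 6 libraries, and with the replicate block, Acod1 was at 0.00918 and Itgb5 at 0.0967. In 6 libraries with the run term Acod1 was at 0.24, Itgb5 at 0.11, Klf9 at -0.27, Pgrmc1 at 0.15 and Rara at -0.0178. Median-of-ratios scaling gave -0.00202 for Cd24a and -0.11 for Klf9, and quantile normalization -0.0234 for Alas2 and -0.0687 for Klf9. Leaving out 1 library gave ranges of -0.68 to 0.24 for Acod1, -0.34 to 0.34 for Cd24a, -0.0361 to 0.31 for H2-K1, -0.0234 to 0.32 for Hsp90b1, -0.35 to 0.64 for Ihh, -0.48 to 0.11 for Itgb5, -0.27 to 0.55 for Klf9, -0.59 to 0.15 for Pgrmc1, -0.77 to 1.32 for Prss29, -0.0178 to 0.84 for Rara and -0.55 to 0.67 for Sgk1. With no counts or stated depth, no counting error was computed, and for genes near 1 FPKM the pseudocount understates changes.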

Other observations

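Histone genes of the Hist clusters, a family singled out after the values were seen, were higher in ePRBoe. Of 45 tested, 22 rose and 0 fell, against 6.8% and 2.63% of all genes tested, with a median log2 fold change of 1.19. Without overlap 31 were higher in ePRBoe, against 23.1% of all genes tested. Their summed level was 569.7, 802.8 and 468.8 FPKM in Wnt7acre, 1086, 957.7 and 1002 FPKM in ePRBoe and 598.5 to 643.9 FPKM in ePRAoe. The linker histone gene Hist1h1b was at 7.56, 5.74 and 3.06 FPKM in Wnt7acre and 20.6, 20.6 and 17.5 FPKM in ePRBoe, and rose by 2.37 (SE 0.18, limma adjusted p = 0.00245). Hist1h1b was also 1 of 6 histone genes among the 40 that differed between ePRBoe and ePRAoe. Without Wnt7acre replicate 3 there were 5 rises (median 0.81), without an ePRBoe library 10 or 11, without ePRAoe replicate 2 12, and with quantile normalization 13 (median 0.91). Members of this family are near-identical and can share reads.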
